A study of Mus musculus with 6 samples.

Results

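The miR-106b~25 cluster and miR-92b were followed in the small RNA of extracellular vesicles (EVs) released by mouse oligodendrocytes and in that of the oligodendrocytes themselves. Both arms of miR-106b, miR-93, miR-25 and miR-92b were taken by name, which gave 8 of the 1906 mature miRNAs counted, from 4 hairpins. All 8 were found in each of the 6 libraries. The EVs group held 3 libraries from vesicles of primary oligodendrocytes at 5 to 6 days in vitro, and the Cells group held 3 libraries from whole primary oligodendrocytes at 6 days in vitro. The cultures of both groups came from C57BL/6N mouse embryos at day 14 and were grown in Sato medium containing 1% horse serum. Vesicles were then gathered for 24 h in Sato medium without serum but with B27, a supplement for neural cultures, and the final pellet was spun at 100000 g. Such a pellet can also hold particles other than vesicles, and the labels do not say whether animals were pooled or whether replicates were separate cultures. The title of the study asks about miRNAs that media supplements bring into vesicle preparations, and no library of medium alone was analysed here.

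A miRNA hairpin is cut into a duplex of a 5p and a 3p strand, of which an Argonaute protein usually keeps 1 as the guide while the passenger strand is degraded. Targets are chosen mainly by the seed, bases 2 to 8 of the mature strand. miR-106b, miR-93 and miR-25 are made from an intron of Mcm7, which encodes a subunit of the helicase that opens DNA for replication. The cluster is a paralogue of miR-17~92. It favours proliferation, with the cell cycle inhibitor Cdkn1a among the targets of miR-106b and miR-93 and the pro-apoptotic Bcl2l11 among those of miR-25. In the mouse brain the cluster is known from neural stem and progenitor cells, and miR-92b, which has a locus of its own, is known from neural progenitors.

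The mature strands are printed first because the members fall into seed groups that cross the loci. All 8 matched the RefSeq table (build GRCm38.p6) by name, and the capitals mark the seed. The guide strands of miR-106b and miR-93 share the seed AAAGUGC, those of miR-25 and miR-92b share AUUGCAC, and the 4 passenger strands have seeds of their own.
miR-106b-5p: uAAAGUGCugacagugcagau
miR-93-5p: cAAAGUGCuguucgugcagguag
miR-25-3p: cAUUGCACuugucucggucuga
miR-92b-3p: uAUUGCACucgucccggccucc
miR-106b-3p: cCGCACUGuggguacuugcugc
miR-93-3p: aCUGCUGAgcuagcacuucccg
miR-25-5p: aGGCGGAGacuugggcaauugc
miR-92b-5p: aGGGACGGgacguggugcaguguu

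The hairpins are printed because much of what follows concerns the 2 strands of each, which stand in capitals, 5p before 3p. On GRCm38.p6 the cluster lies on the minus strand of chromosome 5 within 498 bases, at chr5:138165737-138165818 (miR-106b), chr5:138165523-138165610 (miR-93) and chr5:138165321-138165404 (miR-25). All of it is in intron 13 of a Mcm7 transcript of 15 exons (GENCODE M21), in the direction of transcription, although 1 other annotated Mcm7 transcript has an exon over miR-93 and miR-25. miR-92b lies at chr3:89227116-89227198 on the minus strand, inside no other annotated gene and 28 bases upstream of Mtx1. The counts themselves were made on an older build (mm9), so these positions describe the loci only.
miR-106b: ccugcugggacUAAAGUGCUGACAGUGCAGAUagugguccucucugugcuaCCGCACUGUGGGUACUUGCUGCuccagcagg
miR-93: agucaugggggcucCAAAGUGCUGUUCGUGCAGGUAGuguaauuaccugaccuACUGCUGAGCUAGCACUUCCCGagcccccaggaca
miR-25: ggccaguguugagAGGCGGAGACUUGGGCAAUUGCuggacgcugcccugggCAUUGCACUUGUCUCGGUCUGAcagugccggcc
miR-92b: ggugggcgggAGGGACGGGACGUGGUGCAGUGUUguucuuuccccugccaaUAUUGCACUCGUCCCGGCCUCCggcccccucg

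Total counts were 313766 to 689475 in the EVs libraries and 126910 to 202358 in the Cells libraries, and levels are given as CPM, reads scaled to the total count of the library. A single read was worth 1.45 to 3.19 CPM in the EVs libraries and 4.94 to 7.88 CPM in the Cells libraries. The members held 2.47% to 2.87% of all reads in EVs and 1.34% to 1.56% in Cells. Oligodendrocyte miRNAs (miR-219a, miR-338 and miR-138, 5 arms) were present in every library and summed to 33557 to 36111 CPM in the EVs libraries and 33961 to 43435 CPM in the Cells libraries, with 2 of them called higher in EVs and 3 lower. Other marker lists moved with the groups. Red blood cell miRNAs (miR-451a, miR-144 and miR-486, 5 arms) summed to 4406 to 8549.8 CPM in the EVs libraries and 292 to 333 CPM in the Cells libraries, and the 3 of them that were tested were called higher. The liver miRNA miR-122-5p lay between 4194 and 8316 CPM in the EVs libraries and between 24.7 and 47.3 CPM in the Cells libraries, and was called higher. The neuronal miR-124-3p, miR-129-5p and miR-137-3p summed to 25975 to 33775 CPM in the EVs libraries and 9687 to 15736 CPM in the Cells libraries (2 called higher, 0 lower). The mesenchymal miR-143-3p and miR-145a-5p summed to 2336 to 4570.1 CPM in the EVs libraries and 355 to 999 CPM in the Cells libraries (both called higher). The 3 myeloid arms of miR-142a and miR-223 summed to 290.0 to 485 CPM in the EVs libraries and 378 to 850.0 CPM in the Cells libraries (0 called higher, 2 lower). No listed marker was at 0 in all libraries, though miR-144-5p was at 0 in the 3 Cells libraries. The part of these other cell types in the results below was not tested, and in such bulk samples a smaller share of a cell type and less RNA per cell cannot be told apart.

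Relative to the Cells libraries, EVs held more of both miR-93 strands and of miR-106b-5p, and less miR-106b-3p and miR-92b-3p. The largest rise, a log2 fold change of 1.30, was that of miR-106b-5p, and the largest fall, of 1.67 on the same scale, was that of miR-92b-3p. Thus the strands of the miR-106b hairpin went in opposite directions, and the called guides of the cluster moved opposite to the guide of miR-92b. The CPM ranges of miR-106b-3p overlapped, however, and its fall was not called with scaling by library size only (-0.33, edgeR BH-adjusted p = 0.219). By edgeR's quasi-likelihood test (two-sided, adjusted by Benjamini-Hochberg over 336 miRNAs, called below 0.05), 3 of the 6 members tested were called higher and 2 lower. Over all miRNAs tested, 28.6% were called higher, 28.9% lower and 57.4% in either direction. The CPM ranges of the groups did not overlap for 5 of the 6, against 67.6% of all miRNAs tested, so neither count sets the members apart from the table as a whole. The remaining 2 members, miR-25-5p and miR-92b-5p, had too few reads to be tested.

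**Figure D1:**
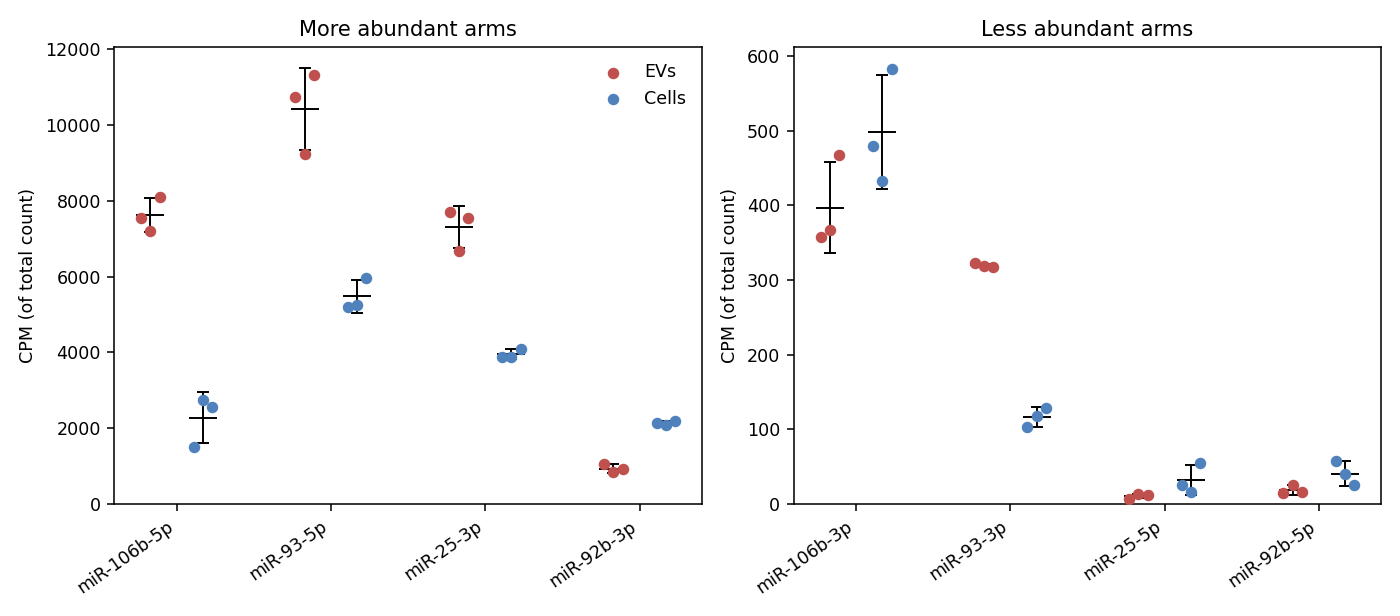
CPM of the 8 members in each library (points), with the mean and SD of each group (black, n = 3), EVs left of Cells. The left panel holds the more abundant arm of each hairpin and the right panel the less abundant arm, on separate linear scales. miR-106b-5p, at 7219 to 8100.4 CPM in the EVs libraries and 1511 to 2750.0 CPM in the Cells libraries, has the widest gap between groups, and miR-92b-3p is the abundant arm that is lower in EVs.

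miR-106b-5p, the guide of the first hairpin of the transcript, stood at 7552, 7219 and 8100.4 CPM in the EVs libraries, against 1511, 2750.0 and 2559.8 CPM in the Cells libraries. Every EVs library exceeded every Cells library, and Cells replicate 1 was the lowest of all. The log2 fold change was 1.30 (SE 0.21, edgeR BH-adjusted p = 0.000828), and it was called in all 16 alternative fits. By mean CPM it ranked 32nd of 1906 miRNAs in EVs and 58th in Cells.

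miR-93-5p, the guide of the middle hairpin and the most abundant member in every library, stood at 10740.0, 9236 and 11338 CPM in EVs, against 5205, 5248 and 5975 CPM in Cells. The groups did not overlap. The log2 fold change was 0.46 (SE 0.16, edgeR BH-adjusted p = 0.0351), a call by a small margin. It was lost in the fit blocked on replicate numbers (0.46, edgeR adjusted p = 0.0692), with upper-quartile scaling (0.35, adjusted p = 0.108), and without EVs replicate 1 (0.40), EVs replicate 2 (0.40), EVs replicate 3 (0.41), Cells replicate 2 (0.39) or Cells replicate 3 (0.48).

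miR-25-3p, the guide of the third hairpin, stood at 7712, 6689.7 and 7549 CPM in EVs, against 3879.9, 3869 and 4097 CPM in Cells. These ranges did not overlap either, but the log2 fold change of 0.42 (SE 0.17) had an edgeR BH-adjusted p of 0.0558 and was not called. It was called with library size only (0.89, adjusted p = 0.00128), with DESeq2 (0.36, 0.0470), limma-voom (0.42, 0.0382) or the 10 CPM filter (0.46, 0.0329), after thinning to equal depth (0.42, 0.0475) and without Cells replicate 1 (0.47, 0.0292). Values for miR-93-5p and miR-25-3p were thus close to each other and on either side of the threshold.

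Of the passenger strands, miR-93-3p held 323, 319 and 318 CPM in EVs, against 102, 118 and 128 CPM in Cells. The EVs libraries lay close together and above all Cells libraries, and the log2 fold change was 0.99 (SE 0.22, edgeR BH-adjusted p = 0.00414). miR-106b-3p held 357, 367 and 467 CPM in EVs, against 480.2, 433 and 583 CPM in Cells. Here the ranges overlapped. Its log2 fold change was -0.80 (SE 0.21, edgeR BH-adjusted p = 0.00976), but it was not called with library size only (-0.33, adjusted p = 0.219), without a filter on low counts (-0.65, 0.0746) or without Cells replicate 3 (-0.73, 0.0550).

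miR-25-5p, the rarest member, rested on 3, 4 and 8 reads in EVs and 4, 2 and 11 reads in Cells. With reads pooled per group its share was 0.299 times as high in EVs (95% exact binomial interval of counting error alone, 0.139 to 0.636). Fitted among 1015 miRNAs with no filter on low counts, its log2 fold change was -1.996 (SE 0.62, edgeR BH-adjusted p = 0.00788). A library with so few reads says little by itself, since 3 reads is also the limit that a count of 0 allows.

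miR-92b-3p, the guide of the separate locus, stood at 1042, 829 and 928 CPM in EVs, against 2132, 2072 and 2194 CPM in Cells. The groups were far apart relative to their spread. Its log2 fold change was -1.67 (SE 0.20, edgeR BH-adjusted p = 0.000156), and it was called lower in all 16 alternative fits. The passenger strand miR-92b-5p rested on 6, 8 and 11 reads in EVs and 9, 5 and 5 reads in Cells. Its pooled share was 0.445 times as high in EVs (0.236 to 0.855), and with no filter the log2 fold change was -1.46 (SE 0.57, edgeR BH-adjusted p = 0.0443 over 1015 miRNAs).

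**Figure D2:**
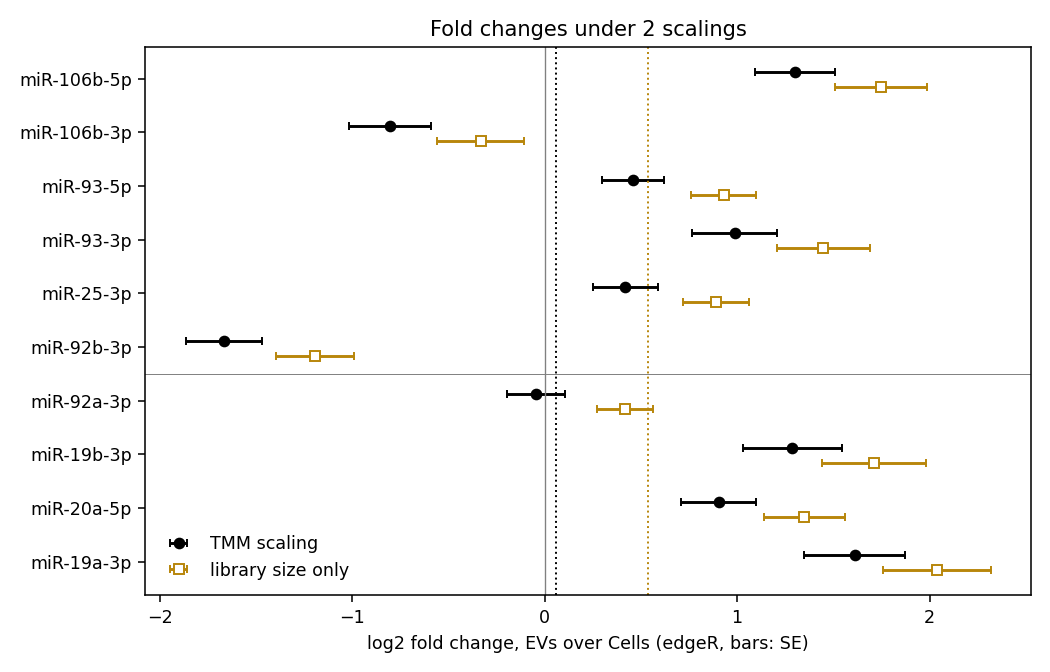
log2 fold changes of EVs over Cells with their SE (edgeR) for the 6 tested members, above the line, and the 4 most abundant relatives, below it. Black circles are values with TMM scaling and open ochre squares values with library size only, and the dotted lines in the same colours mark the median of all 336 miRNAs at 0.06 and 0.54. miR-92b-3p and miR-106b-3p lie left of both medians, and miR-92a-3p changes sign with the scaling.

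The scaling moved all of these values together. With TMM the median log2 fold change over the 336 miRNAs was 0.06, and with library size only it was 0.54, with 148 miRNAs called higher and 60 lower in place of 96 and 97. With library size only miR-106b-5p stood at 1.75, miR-93-3p at 1.45, miR-93-5p at 0.93, miR-25-3p at 0.89, miR-106b-3p at -0.33 and miR-92b-3p at -1.19, so no tested member changed sign.

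The mature strands are 21 to 24 bases long, so the levels are ordered in CPM without a length term. Adapter ligation and PCR can favour some sequences over others, which was not tested, so the order is one of reads and not of molecules. In EVs miR-93-5p was highest at 10438 ± 1083 CPM (mean ± SD, n = 3), followed by miR-106b-5p at 7624 ± 445 and miR-25-3p at 7317 ± 549 CPM, whose ranges overlapped, and then by miR-92b-3p at 933 ± 107 CPM. In Cells the order was miR-93-5p at 5476 ± 432, miR-25-3p at 3948 ± 128, and miR-106b-5p at 2274 ± 667 and miR-92b-3p at 2133 ± 60.9 CPM, of which the last 2 overlapped. In both groups miR-106b-3p came next, with 397 ± 60.9 CPM in EVs, and with 499 ± 76.6 CPM in Cells, and then miR-93-3p. miR-92b-5p and miR-25-5p were lowest. In EVs miR-92b-5p (13.9 to 25.5 CPM) lay just above miR-25-5p (6.96 to 12.7 CPM), and in Cells they overlapped. miR-106b-5p thus had 8.22 ± 0.847 times the reads of miR-92b-3p in EVs, against 1.07 ± 0.320 times in Cells.

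The balance of the strands asks whether both products of a hairpin moved together. Counts of both arms come from the same library, so library scaling cancels in their ratio. EVs held the miR-106b hairpin almost wholly as its 5p guide, while Cells held a larger portion of the 3p strand. The miR-25 hairpin leaned further towards its 3p guide in EVs, whereas the balances of miR-93 and miR-92b were not called. By limma on log2((5p + 0.5)/(3p + 0.5)) over 187 hairpins with at least 10 reads in every library, 2 of the 4 hairpins were called, 1 in each direction. Over all 187, 12.8% were called towards 5p in EVs and 23.0% towards 3p, or 35.8% in either direction.

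For miR-106b the 5p strand outnumbered the 3p strand 21.1, 19.7 and 17.3 times in the EVs libraries, against 3.15, 6.35 and 4.39 times in the Cells libraries. The 3p strand therefore made up 4.52%, 4.83% and 5.45% of the hairpin's reads in EVs and 24.1%, 13.6% and 18.6% in Cells. Every EVs library was below every Cells library in this share, and the Cells libraries varied more. The difference of EVs minus Cells was 2.12 on the log2 scale (SE 0.43, limma BH-adjusted p = 0.00805). It was called in all 12 alternatives, and when a library was left out it lay between 1.88 and 2.38, with adjusted p-values up to 0.0402. Of the 187 hairpins, 13 moved further towards 5p. Shifts towards 5p were also called for miR-17 (1.62), miR-18a (1.20) and miR-20a (1.77) of the paralogous miR-17~92 cluster. From the same cluster miR-92a was called towards 3p (-2.37), and miR-19a (-1.21) and miR-19b (-0.17) were not called. The shift of miR-106b was thus shared with miR-17, miR-18a and miR-20a, but not with the co-transcribed miR-93 (-0.50, not called). The calls of miR-18a and miR-20a were by a small margin (limma BH-adjusted p = 0.0492 and 0.0495). That of miR-20a rests on 34 reads of its 3p strand in EVs and 20 in Cells.

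For miR-93 the ratio of 5p to 3p went the other way, at 33.3, 29.0 and 35.7 in EVs, against 50.8, 44.4 and 46.5 in Cells. These ranges did not overlap, as was the case for 46.0% of the 187 hairpins. However, the difference of -0.50 (SE 0.39, limma BH-adjusted p = 0.358) was not called. The 2 neighbouring hairpins were set against each other by the difference of their log2 arm ratios (miR-106b minus miR-93), which was -0.66, -0.56 and -1.04 in EVs and -3.98, -2.77 and -3.38 in Cells. This difference of differences was chosen after the data were seen. Its value of 2.63 (2.33 to 2.93 when a library was left out) had an exact permutation p of 0.1, two-sided, the smallest that 3 against 3 libraries allow.

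For miR-25 the 3p strand outnumbered the 5p strand 1108, 525 and 651 times in EVs, against 152, 246 and 75.4 times in Cells. The groups did not overlap. The difference in log2(5p/3p) was -2.38 (SE 0.51, limma BH-adjusted p = 0.00805), and lay between -2.72 and -1.99 when a library was left out. After thinning all libraries to the total of the smallest it was -1.61 (limma BH-adjusted p = 0.0291), still called but smaller. It rests on 15 reads of miR-25-5p in EVs and 17 in Cells, and a minimum of 5 reads per arm leaves the hairpin untested. For miR-92b the 3p strand outnumbered the 5p strand 74.8, 32.5 and 58.2 times in EVs and 37.0, 52.6 and 88.8 times in Cells, with overlapping ranges and a difference of 0.07 (SE 0.50, limma BH-adjusted p = 0.905), which was 0.82 (adjusted p = 0.264) after thinning.

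**Figure D3:**
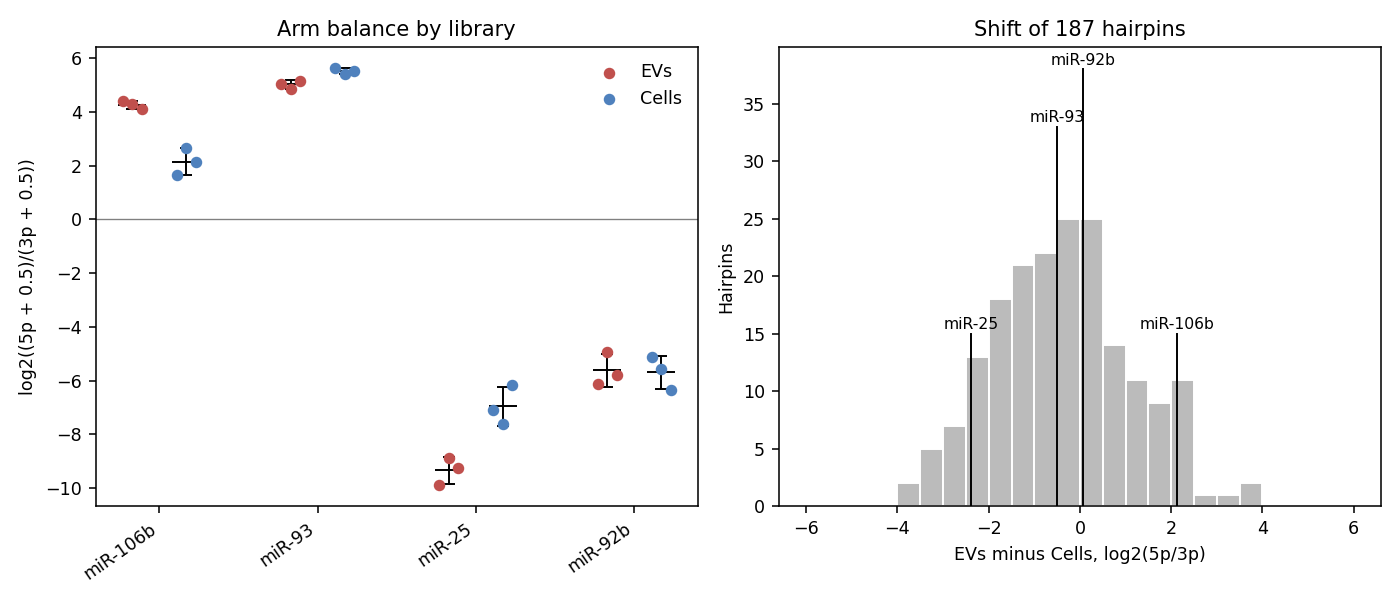
Left, log2 ratio of 5p to 3p reads of the 4 hairpins in each library (points, EVs left of Cells, with mean and SD, n = 3). Right, histogram of the difference of EVs minus Cells for 187 hairpins, with the 4 hairpins marked by vertical lines whose height has no meaning. miR-106b at 2.12 and miR-25 at -2.38 lie towards opposite ends, each on the side of its own guide strand.

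Both called shifts were towards the strand that had more reads in all 6 libraries, 5p for miR-106b and 3p for miR-25. Over all 187 hairpins, 47 were called towards their more abundant strand and 20 towards the other. In that direction 29 hairpins moved further than miR-106b and 18 further than miR-25. The direction of the called shifts therefore does not set these hairpins apart from the table as a whole.

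The agreement of the co-transcribed hairpins was examined by summing both arms of each hairpin and taking ratios within a library, which again need no scaling. The ratio of miR-93 to miR-25 overlapped between EVs and Cells, while miR-106b was more abundant relative to both in EVs. Each hairpin of the cluster was far more abundant relative to miR-92b in EVs than in Cells, though most miRNAs of the table also gained relative to miR-92b-3p. In all, 6 pairs were compared.

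The ratio of miR-93 to miR-25 was 1.43, 1.43 and 1.54 in EVs, against 1.36, 1.38 and 1.47 in Cells, with overlapping ranges. The log2 difference was 0.06 (exact permutation p = 0.3, BH-adjusted p = 0.3 over the 6 pairs). In a limma fit of all hairpins relative to miR-25 its 95% interval was -0.29 to 0.42, or -0.34 to 0.46 in a fit blocked on replicate numbers (limma BH-adjusted p = 0.784). Within same-numbered libraries the difference was 0.08, 0.05 and 0.07, higher in EVs in all 3 pairs, and with 3 pairs an exact paired test cannot go below 0.25.

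The ratio of miR-106b to miR-93 was 0.715, 0.794 and 0.735 in EVs, against 0.376, 0.594 and 0.515 in Cells. The ratio of miR-106b to miR-25 was 1.02, 1.13 and 1.13 in EVs, against 0.510, 0.820 and 0.757 in Cells. Neither ratio overlapped between groups, and Cells replicate 1 was lowest in both. The log2 differences were 0.62 and 0.68, each with an exact permutation p of 0.1 (BH-adjusted p = 0.12), the smallest possible. In limma fits across all hairpins the BH-adjusted p-values were 0.0301 and 0.0236 over 186 hairpins. Without Cells replicate 1 the differences were smaller but of the same sign, at 0.43 and 0.48.

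As a share of the reads of the 3 hairpins, miR-106b held 29.6%, 31.8% and 30.8% in EVs, against 17.8%, 25.6% and 23.5% in Cells. miR-93 held 41.2% ± 0.971 in EVs and 45.4% ± 2.11 in Cells, and miR-25 held 28.1% ± 0.854 in EVs, against 32.4% ± 2.17 in Cells (mean ± SD, n = 3). Taken strand by strand, the ratio of miR-106b-5p to miR-93-5p was 0.733 ± 0.0424 in EVs and 0.414 ± 0.118 in Cells, while that of miR-106b-3p to miR-93-3p was 1.24 ± 0.198 in EVs and 4.21 ± 0.547 in Cells, so the guides and the passengers of the same hairpin pair shifted in opposite directions.

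**Figure D4:**
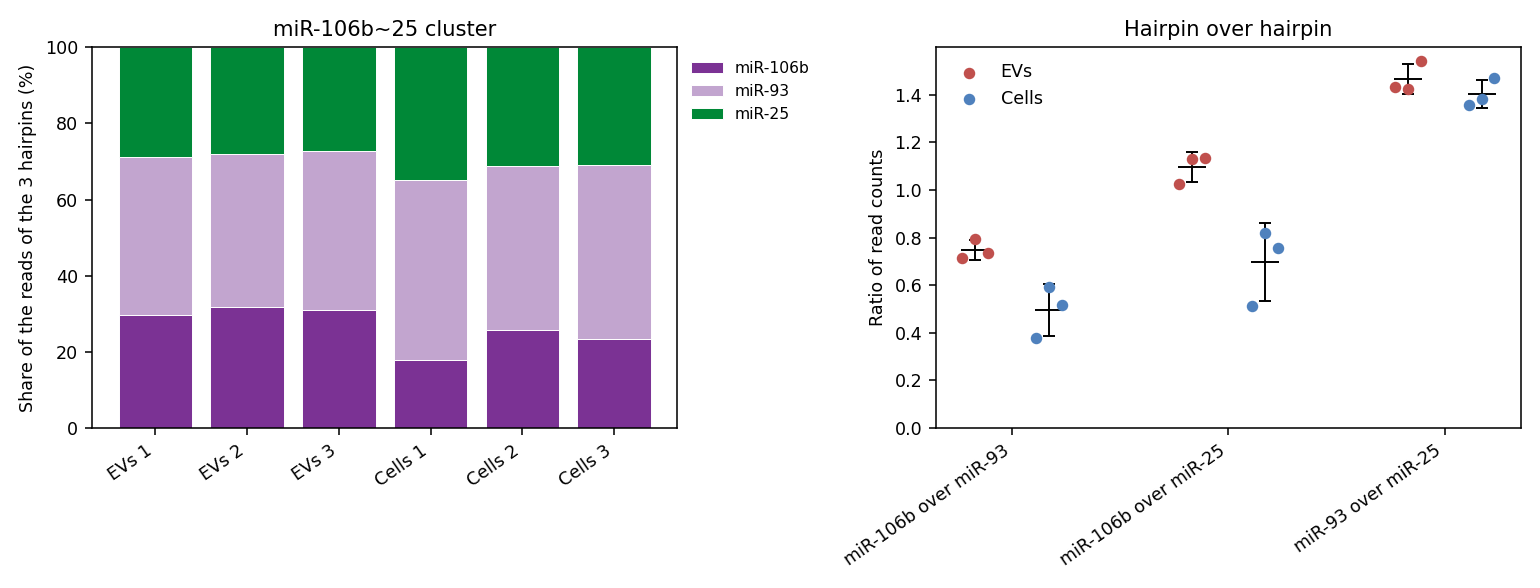
Left, share of each hairpin (both arms) in the reads of the miR-106b~25 cluster, for each library, in percent. Right, ratios of the read counts of hairpin pairs in each library (points, EVs left of Cells, with mean and SD, n = 3). The share of miR-106b is larger in all EVs libraries, and the ratio of miR-93 to miR-25 overlaps between groups.

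Set against miR-92b, the cluster as a whole was 25.3, 27.9 and 29.4 times as abundant in EVs and 5.12, 5.89 and 6.04 times in Cells. The ratios to miR-92b of miR-106b (8.47 ± 0.861 in EVs and 1.28 ± 0.322 in Cells), of miR-93 (11.3 ± 0.943 in EVs and 2.57 ± 0.166 in Cells) and of miR-25 (7.71 ± 0.364 in EVs and 1.83 ± 0.0442 in Cells) did not overlap between groups. The log2 differences were 2.76, 2.14 and 2.07, again with an exact permutation p of 0.1 each (BH-adjusted p = 0.12). In limma across all hairpins the largest BH-adjusted p of the 3 was 2.53e-06. However, the log2 fold change of miR-92b-3p lay at percentile 11.6 of the 336 miRNAs tested, so most of them also gained relative to it. A rise relative to miR-92b is therefore not particular to the cluster.

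Because miR-25-3p and miR-92b-3p share a seed, the reads of all miRNAs with that seed were divided among them. miR-92a-3p, the guide made by 2 other clusters, held the largest share in each library, at 66.4% ± 1.59 in EVs and 66.8% ± 1.73 in Cells. miR-25-3p held 30.3%, 28.1% and 30.2% in EVs, against 22.7%, 20.9% and 21.0% in Cells. miR-92b-3p held 4.10%, 3.48% and 3.71% in EVs, against 12.5%, 11.2% and 11.3% in Cells. Within this seed family the share of miR-25-3p was larger and that of miR-92b-3p smaller in every EVs library, while the share of miR-92a-3p overlapped between groups. miR-32-5p, a rare relative, held 0.346% ± 0.072 in EVs and 0.0560% ± 0.0168 in Cells.

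Among miRNAs with the seed of miR-106b-5p and miR-93-5p, miR-106b-5p held 24.9%, 25.8% and 26.9% in EVs, against 15.2%, 21.7% and 18.6% in Cells. miR-93-5p held 35.4%, 33.03% and 37.7% in EVs, against 52.4%, 41.4% and 43.5% in Cells. Both shares had ranges that did not overlap between groups. The remaining reads were mainly those of miR-20a-5p (26.9% ± 2.86 in EVs and 25.4% ± 1.65 in Cells) and miR-17-5p (11.8% ± 0.131 in EVs and 10.2% ± 1.35 in Cells), both from miR-17~92.

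**Figure D5:**
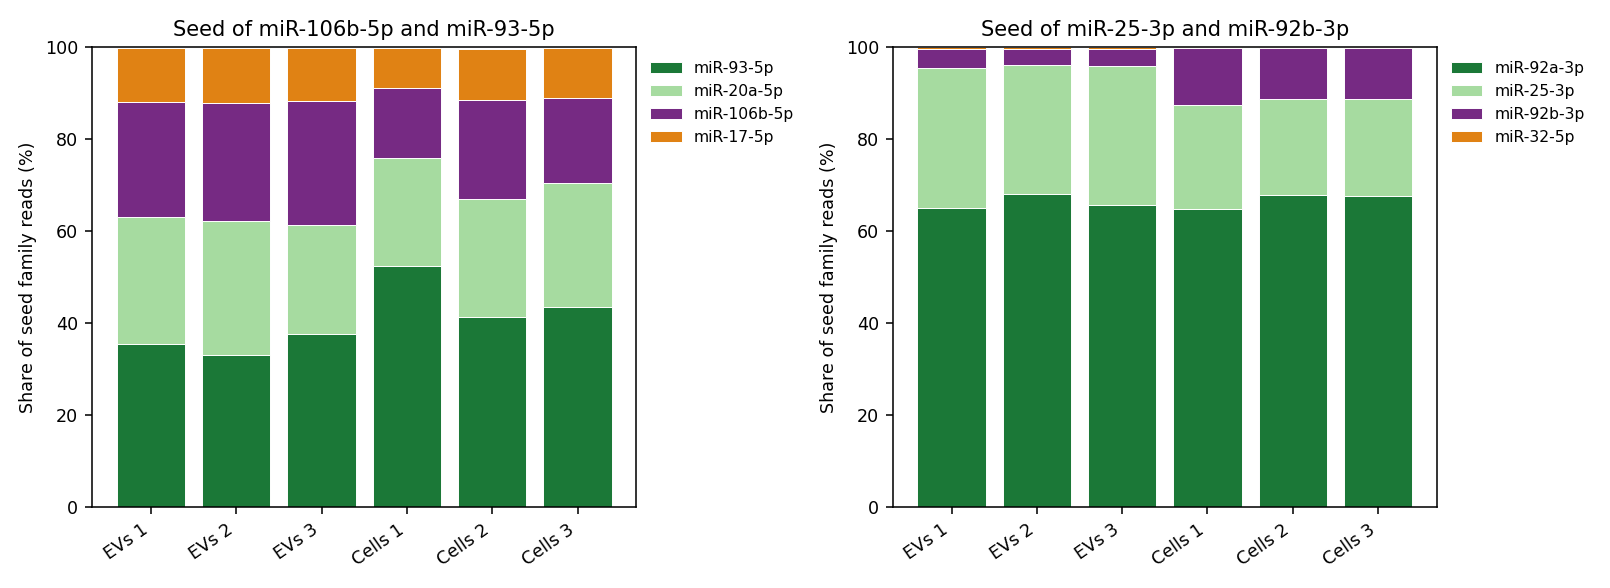
Share of each miRNA in the reads of its seed family, for each library, in percent, with the 3 EVs libraries left of the 3 Cells libraries. Left, the seed of miR-106b-5p and miR-93-5p. Right, the seed of miR-25-3p and miR-92b-3p, where miR-92b-3p is 3.48% to 4.10% in EVs and 11.2% to 12.5% in Cells. The 4 most abundant miRNAs of each family are drawn.

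The guides within these families are close in sequence, and how reads matching several miRNAs were counted is not given in the sources used here. In these strands capitals again mark the seed.
miR-17-5p: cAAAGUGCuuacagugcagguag
miR-20a-5p: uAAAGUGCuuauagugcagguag
miR-92a-3p: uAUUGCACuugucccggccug
miR-32-5p: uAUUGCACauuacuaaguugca
miR-93-5p is 3 edits (substitutions, insertions or deletions) from miR-17-5p, and miR-92b-3p is 3 edits from miR-92a-3p. miR-25-3p is 4 edits from miR-92a-3p, and miR-106b-5p is 5 edits from each of miR-17-5p, miR-20a-5p and miR-106a-5p. The passenger strands are at least 6 edits from any other strand of the count tables with a RefSeq sequence (1622 of 1906 names). Exchange of reads between guides was not tested.

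A list of 25 relatives was drawn from the paralogous miR-17~92a-1 cluster, from the paralogous cluster that starts with miR-106a and from miRNAs with a member's seed. Of these, 10 were tested, 6 were called higher in EVs and 1 lower (miR-92a-1-5p, named after its value of -2.70 was seen), and their median log2 fold change was 0.96, against 0.06 over all miRNAs tested. Over all miRNAs tested 28.6% were called higher and 28.9% lower. The miR-17~92a-1 cluster gave 9 of the 10 tested, with 5 called higher and 1 lower. Arms of 1 transcript are not independent of each other. Arms such as miR-92a-3p and miR-19b-3p, which both clusters make, were counted under miR-17~92a-1, and no arm made only by the miR-106a cluster had enough reads to be tested. Of the 4 most abundant, miR-19b-3p averaged 19007 ± 2752 CPM in EVs, against 5813 ± 2150.1 CPM in Cells (log2 fold change 1.29). miR-19a-3p averaged 5258 ± 688 CPM in EVs, against 1279 ± 442 CPM in Cells (1.61), and miR-20a-5p averaged 7902 ± 688 CPM in EVs, against 3099 ± 688 CPM in Cells (0.90). All 3 rose, and their adjusted p-values (edgeR, BH) lay between 0.000877 and 0.00369. miR-92a-3p, the paralogue of miR-25-3p, averaged 16419 ± 158 CPM in EVs, against 12292 ± 1079 CPM in Cells. Its log2 fold change was -0.04 (SE 0.15, edgeR BH-adjusted p = 0.842), or 0.42 and called with library size only (adjusted p = 0.0298).

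The 3 miRNAs whose log2 CPM over the 6 libraries was most like that of each guide were found by Pearson r. They are described without a test, since all points share their libraries and the split into groups. None of these nearest miRNAs was a member. For miR-106b-5p they were miR-212-3p (0.993), miR-17-5p (0.993) and miR-344f-5p (0.989), with miR-93-5p (0.845) in place 66 and miR-25-3p (0.810) in place 79 of 335. For miR-93-5p they were miR-193b-3p (0.989), miR-22-5p (0.987) and miR-145a-5p (0.983), with miR-25-3p (0.973) in place 10. For miR-25-3p they were miR-377-3p (0.986), miR-32-5p (0.986) and miR-486a-5p (0.985), with miR-93-5p in place 7. For miR-92b-3p they were miR-338-5p (0.994), miR-125b-1-3p (0.993) and let-7a-5p (0.992), and its r with miR-106b-5p was -0.983. miR-93-5p and miR-25-3p therefore followed each other more closely than either followed miR-106b-5p.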

How the data were processed

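For each of the 6 libraries the authors deposited a table of raw counts by mature miRNA. The genome build was NCBIM37 (mm9), and the tools were featureCounts 1.4.6-p4, Bowtie 0.12.8, cutadapt 1.7.1 and bcl2fastq 1.8.4, per the submitters' processing notes. Not given in the sources used here are their settings, the use of strand, the handling of reads with several matches and the removal of PCR duplicates. The adapters carried 4 random bases and libraries were amplified over 14 cycles, per the labels' protocols, so intervals and floors cover counting error only.

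The labels gave the group and replicate number of each library. EVs were compared with Cells by edgeR 4.0.16 (R 4.3.3) over the whole table, with TMM scaling after filterByExpr at a minimum count of 10, group as the only term and BH adjustment over 336 miRNAs. CPM values use the total count without the TMM factor. Arm ratios were tested with limma 3.58.1 after adding 0.5 to each arm, and reads of copies sharing a number and letter were summed. Hairpin ratios were compared by exact permutation tests. DESeq2 1.42.0 was an alternative. The scripts were tested on simulated data. Nothing says that replicates were separate cultures. The p-values then measure only how far these samples spread, which may be technical. No libraries of a group agreed within sampling noise (chi-square over degrees of freedom 7.94 to 51.2). Same-numbered EVs and Cells libraries deviated weakly together from their group means (r = 0.115, 0.103 and 0.254 over the tested miRNAs, each above 0.1). The numbers may thus pair the libraries, but the labels do not say what they mark. The main fits left the numbers out, and fits blocked on them are given as alternatives. In the blocked fit miR-93-5p was not called (edgeR adjusted p = 0.0692).

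The named miRNAs were all 8 members, the 4 most abundant relatives and the 3 nearest in pattern to each guide. miR-32-5p, miR-17-5p and the marker miRNAs were added. The members and lists were chosen with earlier results of these data known.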

Additional observations from a re-analysis of the deposited data

How the results depend on the processing

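miR-106b-5p (1.12 to 1.41 when a library was left out), miR-93-3p (0.84 to 1.02) and miR-92b-3p (-1.78 to -1.60) kept their calls in the 16 alternatives run. miR-93-5p was not called with upper-quartile scaling (0.35) or the replicate block (0.46), and ranged from 0.39 to 0.49 with a library left out. miR-106b-3p was not called with library size only (-0.33) or without a filter (-0.65), and lay between -0.93 and -0.73 when a library was left out, ending its call without Cells replicate 3. miR-25-3p was called with library size only (0.89), DESeq2 (0.36), limma-voom (0.42), the 10 CPM filter (0.46) and thinning (0.42), and ranged from 0.34 to 0.47 with a library left out, called without Cells replicate 1. With library size only 148 miRNAs were called higher and 60 lower. The replicate block changed no other call of a member or arm balance. For hairpin ratios the paired exact test cannot go below 0.25.

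The arm balances of miR-106b and miR-25 were called in every alternative that could be fitted, and that of miR-93 in none. That of miR-92b changed sign without EVs replicate 2 (-0.27) or Cells replicate 3 (-0.26), ranging from -0.27 to 0.34 with a library left out, and was 0.82 after thinning. Thinning brought that of miR-25 to -1.61. The number of hairpins called fell to 37 with a pseudocount of 0.1, 28 with at least 5 reads of each arm, 39 after thinning and 36 without EVs replicate 1 (36 to 60 over the libraries left out), in place of 67. In limma over all hairpins the ratios of miR-106b over miR-93 (0.62) and over miR-25 (0.68), and of miR-106b, miR-93 and miR-25 over miR-92b (2.76, 2.14 and 2.07), were called, which the exact test with 3 libraries a group cannot do. They were also called in the limma fit with the replicate block, chosen after the data were seen, which gave the same differences and adjusted p-values of 1.53e-05 to 0.0213, and miR-93 over miR-25 was not called in either. Where a call changed, the cause was not tested.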
